A study of Mus musculus with 8 samples.

Results

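Red cell antioxidant genes were described in mouse erythroid cells that carried wild type KLF1 or its E339K mutant. The list holds 10 genes, chosen by name for their known roles and not by a cut on any measured value. Earlier results of these data were known when the gene lists were chosen. Of the 10 genes, 9 had a row among the 11364 genes of the expression tables. The remaining gene was not analysed here. Of the 5551 ChIP-seq sites, 4 had one of the 9 genes as the closest transcription start site (TSS).

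The parental line, K1, was derived from Klf1-/- mouse fetal liver, so all cells in the study lacked their own KLF1. K1-ER cells are K1 cells with wild type KLF1 fused to the estrogen receptor, while in K1-E339K-ER cells the fusion is the mutant, delivered in each case by a MSCV-IRES-GFP retrovirus and followed by sorting for GFP. The change matches the human mutation of congenital dyserythropoietic anemia (CDA) type IV. 4-hydroxytamoxifen (4-OHT), given at 200 nM, binds the receptor domain and thereby sends the fusion protein to the nucleus. Newly made RNA was tagged with 4-thiouridine (4sU, 500 µM for 30 min by the study labels) and sequenced in 3 libraries each of K1 and K1-E339K-ER, and 1 K1 library is labelled as ethanol instead of 4-OHT. The labels give 1 ChIP library and 1 input library from a single K1-E339K-ER clone after 3 h of 4-OHT, and the ChIP material was pooled before sequencing. The wild type K1-ER libraries were made in earlier work by the same laboratory, so only their pooled values enter here.

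Red cells carry oxygen on heme iron, and hemoglobin that oxidizes releases superoxide, which superoxide dismutases turn into hydrogen peroxide. Catalase, glutathione peroxidases and peroxiredoxins each remove peroxide, and the last 2 systems draw their reducing power from NADPH. Mature red cells have no nucleus, so these enzymes must be made while the erythroid precursor still transcribes its genes. KLF1 is the erythroid zinc finger factor that binds CACCC box sequences near many genes of that program.

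Stretches of the 4 sites are shown first, since the sites are compared by the KLF motifs they hold. Each is taken from the 100 bp on each side of the site midpoint, without annotated exons of coding transcripts. At Gpx1, Cat and Prdx1, bases at or past the TSS were left out too. The Gpx1 stretch therefore ends before the midpoint of its site, while motifs were counted over the untrimmed sequence. Each stretch is the reference plus strand of mm9, 5′ to 3′, and capitals mark matches described in the next paragraph. The stretches are chr9:108241336-108241410 at Gpx1, chr2:103325318-103325511 at Cat, chr4:116358001-116358148 at Prdx1 and chr8:87494947-87495147 at Prdx2.
Gpx1: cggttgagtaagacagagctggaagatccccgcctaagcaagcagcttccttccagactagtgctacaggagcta
Cat: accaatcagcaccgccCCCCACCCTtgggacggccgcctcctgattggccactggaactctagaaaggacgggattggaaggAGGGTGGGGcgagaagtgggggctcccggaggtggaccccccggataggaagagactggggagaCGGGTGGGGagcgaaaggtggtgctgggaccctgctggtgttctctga
Prdx1: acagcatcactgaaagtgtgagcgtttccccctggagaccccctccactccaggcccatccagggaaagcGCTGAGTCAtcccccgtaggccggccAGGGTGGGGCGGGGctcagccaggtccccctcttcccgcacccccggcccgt
Prdx2: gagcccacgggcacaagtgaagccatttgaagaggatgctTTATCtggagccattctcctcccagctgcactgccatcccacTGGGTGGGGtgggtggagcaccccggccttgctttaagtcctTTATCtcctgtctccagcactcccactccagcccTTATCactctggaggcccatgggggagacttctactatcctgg

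The motif read by wild type KLF1 has a pyrimidine at position 5 of 9 and was searched as NGGGCGGGG, NGGGCGTGG, NGGGTGGGG and NGGGTGTGG. The motif ascribed to the mutant has a purine there and was searched as NGGGAGGGG, NGGGAGTGG, NGGGGGGGG and NGGGGGTGG. Both were searched on both strands, and matches to one can overlap matches to the other at a shifted position. Capitals also mark GATAA, the letters bound by GATA factors, which reads TTATC on the plus strand at Prdx2. At Prdx1 they mark TGACNNNGC, the core of the antioxidant response element bound by NRF2. These last 2 searches were chosen after the sequences had been seen.

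Of the 9 genes, 4 (Prdx1, Prdx2, Cat and Gpx1) had a site within 10 kb that lay closest to their own TSS, and 5 (Gpx4, Sod1, Sod2, Gclm and G6pdx) had none. That is 44.4% of the 9 genes, beside 21.3% of all genes in the tables and 25.9% of the 5892 genes whose mean expression was at least that of the lowest of the 9. The mutant was at least 4-fold higher at 2 of the 4 sites, beside 55.3% of all sites, and the wild type at 1 of 4, beside 23.3%. At the remaining site, Prdx2, the proteins were less than 4-fold apart. These are counts over 4 sites, and no test was made. Each concentration below is the authors' pooled value for one protein, in log2 of normalized reads, so it carries no replicate error.

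Among the enzymes that remove hydrogen peroxide, Gpx1 had the site that favoured wild type KLF1. Gpx1 encodes the selenium-containing glutathione peroxidase of the cytosol. Its site, chr9:108241269-108241604, had its midpoint 25.5 bp downstream of the TSS given in the site table and ended just before the gene annotated at chr9:108241607-108242671. The concentration was 6.0 for KLF1-ER and 3.21 for KLF1-E339K-ER. The wild type value was above that of 91.4% of sites and the mutant value above that of 21.1%. The wild type was therefore higher by 2.79 on the log2 scale, a 6.92-fold difference. The site held no match to either KLF motif over its whole length. Of the 1295 sites with a higher wild type, 206 (15.9%) likewise held neither motif over their whole length, beside 18.1% of all sites. The Gpx1 site held 1 GATAA match, which lies beyond the stretch printed above.

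Cat, the gene of catalase, which splits hydrogen peroxide into water and oxygen, had a site with the opposite order. The site, chr2:103325252-103325571, had its midpoint 101.5 bp upstream of the TSS, outside the gene annotated on the minus strand at chr2:103294006-103325317. The concentration was 1.23 for KLF1-ER and 5.53 for KLF1-E339K-ER, which placed the mutant above 72.6% of sites. The wild type value was low, above that of 34.4% of sites. The mutant was higher by 4.30 on the log2 scale, a 19.7-fold difference, and this fold rests on that low wild type value. The stretch printed above holds 3 pyrimidine matches and no purine match. AGGGTGGGG occurs once on each strand, and the remaining match reads CGGGTGGGG. The match nearest to the midpoint of the site was centred 7.5 bp from it and was the only one within 50 bp.

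The site at Prdx1 also favoured the mutant. Prdx1 encodes a cytosolic peroxiredoxin, a thiol peroxidase recharged by thioredoxin. The site, chr4:116357946-116358256, had its midpoint 103 bp upstream of the TSS, before the gene annotated at chr4:116358149-116373427. KLF1-ER was listed at −0.09, the lowest value in its column, which 1424 sites shared, and KLF1-E339K-ER at 4.2. The difference of 4.29 is measured from that lowest listed value, so no fold is given. The mutant value itself was modest, above that of 29.4% of sites. A pyrimidine match, AGGGTGGGG, was centred on the midpoint and overlapped a second, GGGGCGGGG, centred 5 bp further on, with no purine match in the site. The antioxidant response element core, TGACTCAGC on the minus strand, was centred 26 bp from the midpoint, and 15.0% of all sites hold such a core.

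Prdx2 had a site with high concentrations of both proteins. Prdx2 encodes the most abundant peroxiredoxin of red cells. Its site, chr8:87494883-87495211, lay in an intron, with the midpoint 1500 bp downstream of the TSS, inside the gene annotated at chr8:87493486-87498733. The concentration was 6.34 for KLF1-ER and 6.89 for KLF1-E339K-ER, above 94.7% and 95.6% of sites. The difference was 0.55 in favour of the mutant, or 1.46-fold. Only 100 of the 5551 sites (1.80%) had a concentration of at least 6 for both proteins. Prdx2 was the only one of the 4 sites that did. The cutoff of 6 lies just below both Prdx2 values, so this share describes the site and is no test of its rarity. The site held 1 pyrimidine match, TGGGTGGGG, centred 14 bp from the midpoint, and no purine match. It also held 3 GATAA matches, all on the minus strand, beside 3.46% of all sites with 3 or more.

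**Figure D1:**
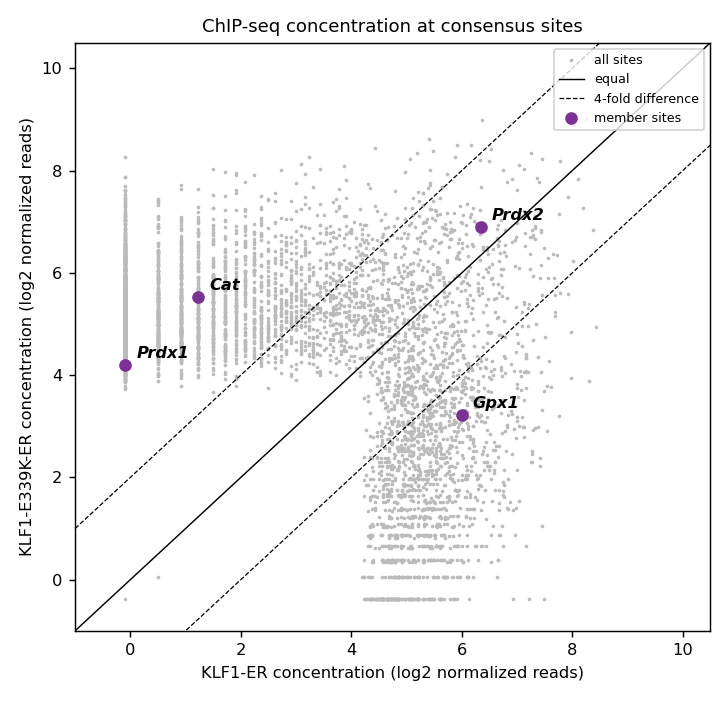
Concentration of KLF1-ER (horizontal axis) and KLF1-E339K-ER (vertical axis) at the 5551 sites, both in log2 normalized reads, with the 4 sites of the antioxidant genes as large labelled points. The solid line marks equal values and the dashed lines a 4-fold difference. Cat and Prdx1 lie above the upper dashed line, Gpx1 lies below the lower one, and Prdx2 lies between them in the upper right corner.

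Over the 4 sites, 3 (Cat, Prdx1 and Prdx2) held a pyrimidine match within 50 bp of the midpoint, beside 35.3% of all sites. None held a purine match, beside 35.5% of all sites. Both sites with a higher mutant thus held pyrimidine matches alone. That was the case at 256 (8.34%) of the 3068 sites with a higher mutant, of which 46.3% held a purine match. In base composition the 4 sites ranged from 55.6% to 61.3% G and C, around the median of all sites, 59.1%. The Prdx2 site had 4 CpG pairs and the other 3 had 12 to 20, with a median of 10 over all sites. Of the 1295 sites with a higher wild type, 62.8% held a pyrimidine match, and the Gpx1 site held none. A match is a run of letters and shows no binding by itself.

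The surroundings of the 4 sites differed. The sites at Gpx1 and Cat were the only ones within 50 kb of those TSS, and Prdx1 had 1 other, 34.1 kb upstream of its TSS and closest to Akr1a1. Around Prdx2 there were 12 sites within 50 kb of the TSS, its own included. Within 10 kb of the midpoint of the Prdx2 site lay 6 others, all closest to Junb, which encodes a subunit of the AP-1 factor. Of these, 4 favoured the mutant at least 4-fold and 1 favoured the wild type. The one most like the Prdx2 site, 8.56 kb from it, had 6.65 for KLF1-ER and 5.79 for KLF1-E339K-ER. Which gene a site acts on was not measured.

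**Figure D2:**
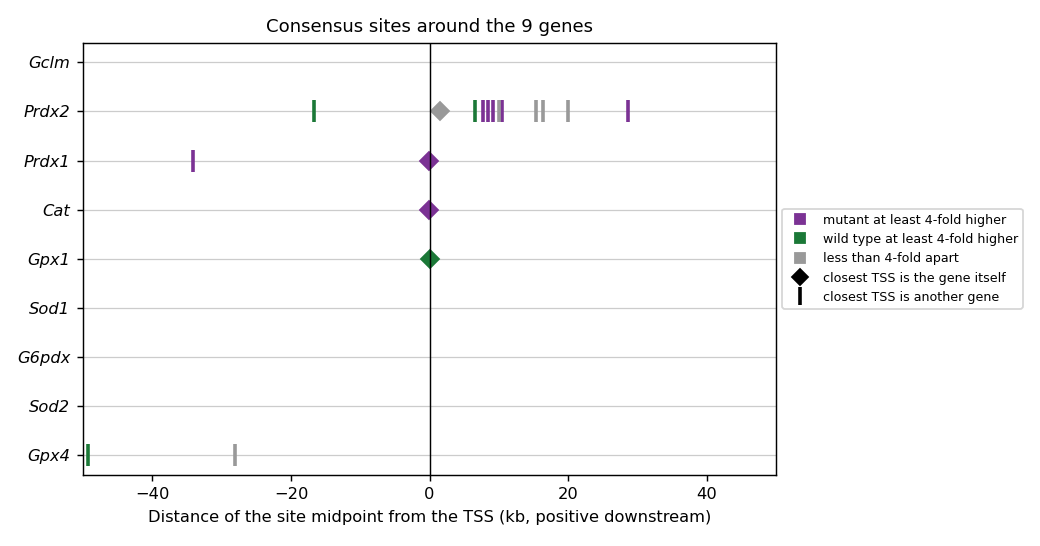
Position of every site within 50 kb of the TSS of the 9 genes, as the distance of the site midpoint in kb, positive downstream of the TSS. Diamonds are sites closest to the gene itself, ticks are sites closest to another gene, and colors give the protein with the concentration at least 4-fold higher. Prdx2 has 12 sites in this window, Gclm, Sod1, G6pdx and Sod2 have none.

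For the 5 genes without a site of their own, the nearest site lay 28.1 to 226.65 kb from the TSS and closest to another gene. Gpx4, whose enzyme reduces lipid hydroperoxides in membranes, had the nearest one 28.1 kb upstream, at Hmha1, with 5.10 for KLF1-ER and 5.83 for KLF1-E339K-ER. Sod2, the mitochondrial manganese superoxide dismutase, had it 71.2 kb upstream at Acat3, with −0.09 and 5.04. G6pdx encodes glucose-6-phosphate dehydrogenase, the first NADPH-producing step of the pentose phosphate pathway, and its nearest site was 147.43 kb downstream at Dnase1l1, with 6.19 and 3.52. Gclm, the modifier subunit of the enzyme that starts glutathione synthesis, had it 202.316 kb upstream at Abca4, with 5.62 and 0.39. Sod1, the cytosolic copper-zinc superoxide dismutase, had it 226.65 kb upstream at Tiam1, with 4.58 and 1.77. Neither superoxide dismutase, then, had a site within 50 kb, nor did the NADPH and glutathione synthesis genes of the list.

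All 9 genes were transcribed in these cells. The tables give each gene 1 mean level over the libraries of all lines together, in log2 CPM (reads scaled by library size, on a log2 scale), so levels in single libraries or groups, and differences between groups, are not reported. Because a long gene collects more reads than a short one, genes were compared by the level per kb of deposited gene length (log2 CPM per kb). On that scale all 9 lay above the median of all genes, 0.82, and 6 above the upper quartile, 2.26. Gpx4 is among the 6 with a deposited length of 2930 bp, well short of its annotated span, chr10:79509911-79519184. Its level per kb would be lower over that span, and below the upper quartile. Without division by length, 8 of the 9 lay above the median of all genes, 5.27 log2 CPM. Gpx4, at 5.17 log2 CPM, lay below it. The median of the 9 genes was 3.53. No spread is known, so whether neighbours in the order below differ beyond error was not tested.

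Gpx1 and Prdx2 were the highest per kb. Gpx1 had a mean level of 6.49 log2 CPM, which is 6.16 log2 CPM per kb, above 98.8% of the 11364 genes. Prdx2 had 7.86 log2 CPM and 5.64 log2 CPM per kb, above 98.1%. Both genes are short, with deposited lengths of 1263 and 4666 bp. Both had the highest wild type concentrations among the 4 sites as well. For the mutant, Prdx2 had the highest concentration of the 4 sites (6.89) and Gpx1 the lowest (3.21). The RNA means include lines without wild type KLF1, and a link between level and concentration was not tested.

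The next 4 genes fell between 3.26 and 4.13 log2 CPM per kb. Gclm stood at 4.13 (8.57 log2 CPM), Gpx4 at 3.62 (5.17 log2 CPM), Sod1 at 3.53 (6.02 log2 CPM) and Prdx1 at 3.26 (7.11 log2 CPM). Each was above 87.1% to 93.3% of all genes per kb. Of these 4 genes, only Prdx1 had a site of its own.

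Sod2, Cat and G6pdx were the lowest of the 9. Sod2 had 2.12 log2 CPM per kb (5.48 log2 CPM), Cat 1.82 (6.79 log2 CPM) and G6pdx 1.36 (5.66 log2 CPM). They lay above 72.8%, 67.6% and 59.3% of genes. The highest and the lowest of the 9 genes, Gpx1 and G6pdx, were 27.7-fold apart per kb. Per kb of summed exon length the span was 9.11-fold and the order changed, with Gpx1 (6.73) and Sod1 (6.65) the highest and G6pdx (4.04) and Sod2 (3.55) the lowest, in log2 CPM per kb.

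**Figure D3:**
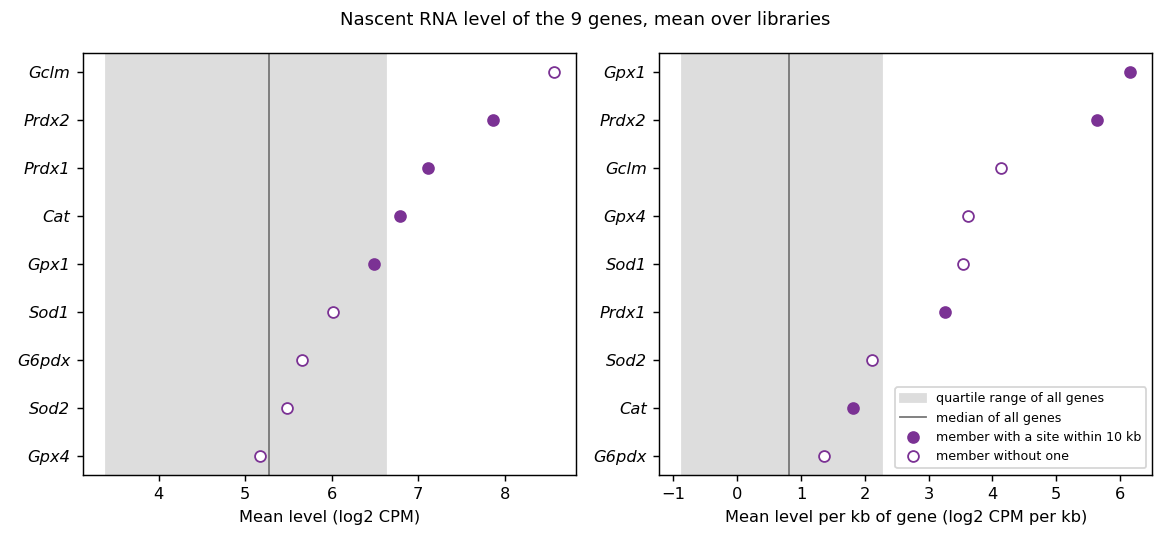
Mean level of the 9 genes over all RNA libraries, in log2 CPM (left) and in log2 CPM per kb of deposited gene length (right). Filled circles are the 4 genes with a site within 10 kb and open circles the other 5. The gray band is the quartile range and the line the median of all 11364 genes, and on the right all 9 circles lie to the right of that line, from 1.36 for G6pdx to 6.16 for Gpx1.

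The cells were checked against marker genes. All 13 erythroid markers were listed, with Gata1 at 9.79, Tal1 at 9.48 and Epor at 8.31 log2 CPM, and Alas2 at 5.29 and Nfe2 at 5.37. The lowest were the adult globin genes Hba-a1 at 3.79 and Hbb-b1 at 3.87 log2 CPM, whose near-identical copies make their counts uncertain. Of 5 lymphoid and 5 hepatocyte markers, 0 were listed. Of 6 myeloid and macrophage markers 4 were listed, the highest being Adgre1 at 3.69 log2 CPM, and of 6 megakaryocyte markers 2 were, the higher being Itga2b at 5.30 log2 CPM. Klf1 stood at 6.84 log2 CPM, a mean over libraries with and without the transgene, which cannot check the labels.

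The promoters of the 9 genes were read from RefSeq (GRCm38.p6), as 300 bases running from 250 before to 50 after each listed start. All 9 genes had at least 1 window, 12 windows in all. A pyrimidine match was present in at least 1 window of 8 of the 9 genes, beside 32.5% of the 27025 genes with a window. Gpx1 was the gene without one, as it was at its site. A purine match was present at 1 gene, in 1 of the 4 Gpx4 windows, beside 24.5% of genes. Sod1, Sod2, Gclm and G6pdx each had pyrimidine matches in the promoter but no KLF1 site within 50 kb. The TGACNNNGC core was present at 4 genes, Gclm, Prdx1, Sod1 and G6pdx, beside 14.0% of genes. The shares given here cover all 27025 genes with a window, more than the 11364 genes of the expression tables. They were not matched for expression or base composition, so the counts show no feature particular to the 9 genes. Gclm and G6pdx are known targets of NRF2, and no NRF2 binding was measured here.

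The same sites were counted for 61 other genes of these pathways, of which 55 had a row in the tables. Of the 55, 18 (32.7%) had a site within 10 kb as the closest TSS, beside 21.3% of all genes. They had 22 sites, of which 13 favoured the wild type and 7 the mutant at least 4-fold. Of the 3750 sites within 10 kb of any TSS, 22.8% and 53.9% did so. Of the 13, 3 lay at Mgst3, which had a mean level of only −0.01 log2 CPM, and 2 at Nfe2l1. These lists were chosen with earlier results of these data known. The shares of all genes and sites were not matched for expression, and no test was made. Among the other peroxiredoxins, Prdx6 had a wild type site at its promoter (6.32 for KLF1-ER, 1.85 for KLF1-E339K-ER) and Prdx4 a mutant one (2.61 and 4.85). As at Prdx1, KLF1-ER was listed at its lowest value at Txnip, the thioredoxin inhibitor (−0.09 and 5.04), and at Sqstm1, which encodes an adaptor that binds KEAP1 (−0.09 and 5.10). Nfe2l2, the gene of NRF2 itself, had 5.10 and 7.26, while Keap1, which encodes its inhibitor, had 6.51 and 2.85. Among enzymes that supply NADPH, Pgd (5.08 and 1.55) and Idh2 (4.69 and 0.05) favoured the wild type and Idh1 (1.23 and 4.51) the mutant. High values of both proteins, as at Prdx2, recurred at Esd (7.92 and 7.48). At 1 of the 2 sites within 10 kb of Blvrb they were 5.98 and 6.99, the first just under the cutoff of 6. Of the remaining genes with a site, Txn2 and Bach1 favoured the mutant, and Glrx3, Glrx5, Mgst3, Nfe2l1 and the metallothionein gene Mt2 favoured the wild type. Mt2 (7.08), Mt1 (6.72) and Mafk (5.15) had the highest levels of these genes in log2 CPM per kb. Only Mt2 of the 3 was the closest TSS of a site within 10 kb.

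**Figure D4:**
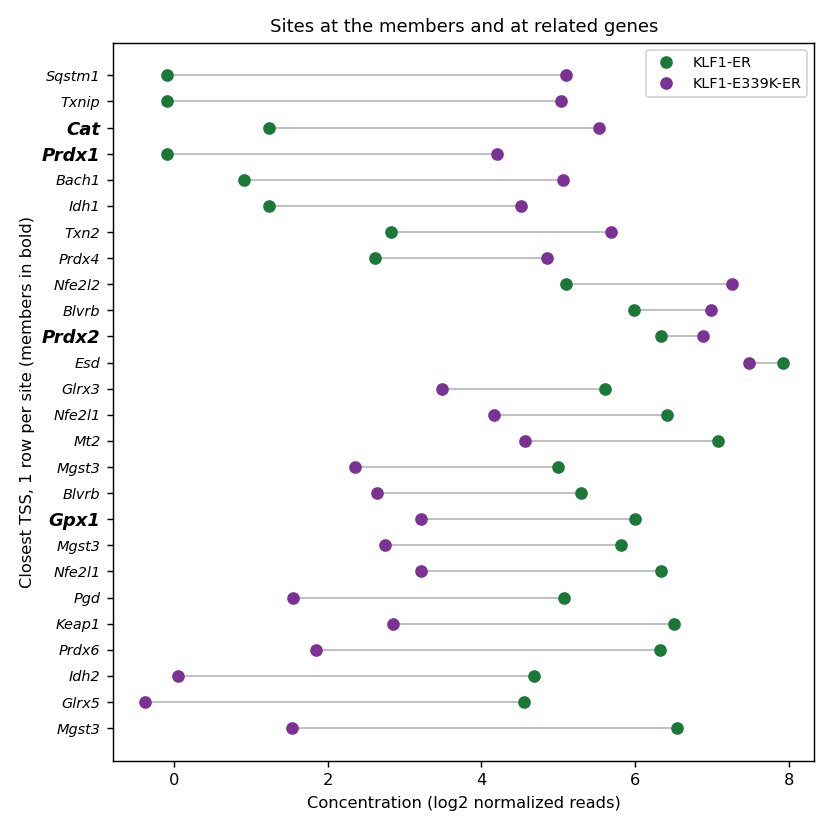
Concentrations of KLF1-ER (green) and KLF1-E339K-ER (purple), in log2 normalized reads, at the 4 sites of the antioxidant genes (bold) and at the 22 sites of the related pathway genes within 10 kb, ordered by the difference between the proteins. Cat and Prdx1 sit among the sites with a higher mutant, Gpx1 among those with a higher wild type, and Prdx2 beside Esd and Blvrb, where both values are high.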

How the data were processed

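Newly transcribed RNA and chromatin immunoprecipitates of mouse K1-derived lines were sequenced on the Ion Proton. The authors mapped RNA reads to mm9 with Tophat2 (2.0.10) and TMAP, dropped poorly mapped reads and fitted limma-voom. ChIP reads were mapped with TMAP without duplicates or multi-mapped reads, MACS2 and GEM gave the peaks, and DiffBind scored a consensus set. The counting tool and annotation are not given in the sources used here. The deposited gene tables hold the authors' mean log2 CPM and a length in bp, and the deposited site table holds log2 concentrations, positions and the distance to the closest TSS. The tables also hold the authors' comparisons (log2 fold changes, moderated t, p-values and their adjustment in the gene tables, and fold, p-value and FDR in the site table). These columns were not used here.

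Both gene tables were joined on Entrez identifier, length and mean. The signed TSS distance was read as TSS minus midpoint, since 94.1% of 5151 sites with an annotated symbol then met an annotated start within 100 bp, against 8.89% with the other sign. A protein was called higher at a log2 difference of at least 2 (4-fold). Sequences came from NCBIM37 (mm9) through pysam 0.24.0, gene positions from GENCODE M1, promoters from RefSeq. Deposited lengths were within 10% of the gene span for 84.9% of the 9961 genes with an annotated length. The motif search and the level per kb were tested on simulated data. The join was checked only on the deposited data, where every row found a partner. The text names the listed genes, their sites, and pathway genes with a site within 10 kb. The gene lists were chosen with earlier results of these data known. No test was made, since each value used is a pooled mean: depth per library is unknown, and these values carry no error.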

Additional observations from a re-analysis of the deposited data

How the results depend on the processing

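Of 18 alternatives, 15 left the count or median within its limit. With a minimum of 8-fold instead of 4-fold, 0 of the 4 sites favoured the wild type, because Gpx1 was 6.92-fold apart, and 16.0% of all sites still did. The median level of the 9 genes was 6.49 log2 CPM with no division by length (5.27 for all genes) and 5.51 log2 CPM per kb of summed exon length (3.54 for the 9961 genes with an annotation), against 3.53 (0.82) with the deposited length. Within 1 kb of a TSS, 3 genes had a site, as the Prdx2 midpoint is further away. The share of all genes at 1 kb is not given here, and the 21.3% at 10 kb is not its background. The motif counts were the same within 100 bp and over the whole site, where 58.6% of all sites hold a pyrimidine match and 58.4% a purine match. No paired analysis was possible because each column is a mean over libraries and no test was made, and for the same reason no replicate could be left out. The wild type and mutant ChIP libraries were made in different experiments, so protein and experiment cannot be told apart.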
